A study of Mus musculus with 8 samples.

Results

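The 10 genes described here are core and output genes of the circadian clock, the cell-autonomous timer whose transcripts rise and fall over the day. They are Arntl (also called Bmal1), Npas2, Clock, Nr1d1, Nr1d2, Dbp, Tef, Per1, Per2 and Per3, and a probe was taken as a member when the annotated matrix gave it one of these symbols. This gave 19 probes of 41174 on the array, or 10 of 20920 named genes, and all 10 genes were measured. The set was chosen by a measured value, the difference of Nr1d1 between transgenic and wild-type lungs, which was among the larger rises on the array, so the values by genotype are given as a description, without a test. The tested question was another one, namely whether Nr1d1, Nr1d2, Dbp, Tef and the Per genes ran opposite to Arntl from lung to lung within a genotype.

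Lungs came from untreated male C57BL/6 mice labelled as 8 to 10 weeks old, 4 wild-type and 4 Scgb3a2-transgenic. The strain is as the labels give it, and the methods name C57BL/6NCr for the eggs that received the transgene. The transgenic line, founded by a single mouse, carries a mouse Scgb3a2 cDNA driven by the human surfactant protein C promoter, which is active in alveolar type II cells. RNA of each whole lung was labelled with Cy5 and hybridized to a two-color array against a Cy3-labelled pool of RNA from all samples. Every value below is therefore a log2 ratio of a lung to that pool, with 0 meaning equal signal, and lungs are called WT1 to WT4 and TG1 to TG4 by genotype and replicate number. The lungs are separate mice, and the hour at which they were collected is not given in the sources used here.

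In the clock, ARNTL pairs with CLOCK or NPAS2 and binds E-box motifs to switch on the Per genes, the REV-ERB genes Nr1d1 and Nr1d2, and the output factors Dbp and Tef. PER proteins then block this pair, while the REV-ERB proteins repress Arntl, Npas2 and Clock. As a result Arntl and Npas2 peak at about the opposite time of day from Nr1d1, Dbp and the Per genes in peripheral tissues, lung included. DBP and TEF bind D-box motifs, a route by which they act on Per genes.

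Promoters were searched because some members varied together across lungs, though after removal of genotype means no pair passed adjustment over all pairs. A promoter of each gene that held a searched motif is shown. The window was the 250 bases before a RefSeq start (GRCm38.p6, both strands searched), and 9 of the 10 genes had at least 1 promoter in the table used. The letters searched were CACGTG for the E-box, CACGTT for an E-box variant, TTANGTAA for the D-box, and TAGGTCA and TGGGTCA for the element bound by REV-ERB proteins. An E-box lay in a promoter of Per1 (chr11:69098699-69098948, plus strand) and of Tef (chr15:81811164-81811413, plus strand). Of all 32851 promoters 6.02% held it, and 6.86% of 27025 genes had it in at least 1 promoter. The D-box was found in Per3 (chr4:151044666-151044915, minus strand), in 2 copies, against 2.06% of promoters, and the E-box variant in Nr1d1 (chr11:98775378-98775627, minus strand), against 3.85%. These 4 windows follow 5′ to 3′, with the motif in capitals. A second Tef promoter also held an E-box, while the second Per1 promoter held none of these letters. The windows of Arntl, Npas2, Clock, Nr1d2 and Dbp held none of these letters, and the REV-ERB elements, in 2.23% and 3.24% of promoters, were in no window searched. Per2 had no promoter in the table used. Sites outside these 250 bases, within the genes included, were not searched, so a window without a motif does not show that the gene lacks one.
Per1: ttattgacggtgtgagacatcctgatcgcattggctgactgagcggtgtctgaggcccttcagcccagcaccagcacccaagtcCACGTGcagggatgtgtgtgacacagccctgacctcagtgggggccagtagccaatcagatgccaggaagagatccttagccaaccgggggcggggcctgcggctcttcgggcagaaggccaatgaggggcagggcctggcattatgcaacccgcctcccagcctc
Tef: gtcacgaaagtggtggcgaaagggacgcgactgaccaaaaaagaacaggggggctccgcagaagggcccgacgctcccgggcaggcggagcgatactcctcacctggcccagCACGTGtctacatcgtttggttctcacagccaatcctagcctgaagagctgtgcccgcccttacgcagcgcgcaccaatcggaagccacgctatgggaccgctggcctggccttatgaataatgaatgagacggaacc
Per3: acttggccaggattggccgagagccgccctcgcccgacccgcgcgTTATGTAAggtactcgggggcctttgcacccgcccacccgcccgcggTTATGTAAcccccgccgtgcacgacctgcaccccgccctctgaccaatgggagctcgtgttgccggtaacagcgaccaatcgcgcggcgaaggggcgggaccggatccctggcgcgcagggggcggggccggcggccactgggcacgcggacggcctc
Nr1d1: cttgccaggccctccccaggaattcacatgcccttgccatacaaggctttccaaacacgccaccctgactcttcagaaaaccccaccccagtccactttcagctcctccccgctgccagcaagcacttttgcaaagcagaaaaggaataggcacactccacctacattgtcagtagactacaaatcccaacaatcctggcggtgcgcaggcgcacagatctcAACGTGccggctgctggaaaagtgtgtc

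Median Cy5 signals were 204 to 277.5 per array over backgrounds of 55.5 to 59, no spot was saturated, and 1.72% to 6.46% of spots were left out for an outlier flag. Each of 4 slides held 1 wild-type and 1 transgenic array, and WT1, WT3, TG1 and TG4 were scanned on the first of 2 days. Scgb3a2 itself averaged -0.09 ± 0.51 (SD, n = 4) over wild-type mice and 0.79 ± 0.33 (SD, n = 4) over transgenic mice, 1.84-fold higher, with WT3 at 0.58 above TG2 at 0.47. All 19 clock probes were well above background in Cy5 on 8 of 8 arrays, so every member passed the filter on dim probes. Genes with several probes are given by the brightest of those with the most values.

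Arntl, the partner that CLOCK and NPAS2 share, varied most in transgenic lungs. Its single probe gave 0.03, -0.38, -0.34 and -0.07 in WT1 to WT4, and -0.74, 0.26, -0.55 and -1.25 in TG1 to TG4. TG4, TG1 and TG3 were the 3 lowest of the 8 lungs and TG2 was the highest, so that wild-type lungs lay between the transgenic extremes. The wild-type mean was -0.19 ± 0.20 (SD, n = 4), and the transgenic mean -0.57 ± 0.63 (SD, n = 4). Fewer cells of a type and less RNA per cell cannot be told apart in whole lung.

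Npas2, which can stand in for Clock, read -0.33, -0.81, -0.16 and -0.73 in wild-type and -0.74, -0.71, -1.46 and -0.43 in transgenic lungs. It was below the pool in all 8 lungs, as were 19.7% of all probes with 8 values. Since TG3 was the lowest lung for Npas2 and TG4 the lowest for Arntl, these genes did not order the lungs alike. Clock was the steadiest of the 10, from -0.36 in TG1 to -0.01 in WT1, a 1.27-fold span.

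Nr1d1, which encodes REV-ERBα, had the widest range of the 10 genes. Its brightest probe gave -0.71, 0.54, -0.23 and 0.68 in WT1 to WT4 and 0.91, 0.62, 0.46 and 1.62 in TG1 to TG4, a 5.02-fold span. The genotypes overlapped, with WT4 above TG2 and TG3. The low end was held by WT1 and WT3, and the high end by TG4 and TG1, which are the 4 lungs of the first scan day.

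Its other probes told the same story in part. Probe A_52_P130961 gave 0.21, 1.05, 0.57 and 0.67 in wild-type and 1.04, 0.65, 0.71 and 1.60 in transgenic lungs, with WT2 as high as TG1. Probe A_52_P130952 gave -0.54, 0.24 and 0.40 in WT1, WT3 and WT4 and 0.76, 0.43, 0.53 and 1.55 in TG1 to TG4. This probe separated the genotypes, but its WT2 spot had been left out for an outlier flag. With flagged spots kept WT2 was 0.54, above TG2 at 0.44 and TG3 at 0.53, and the genotypes overlapped. WT1 was the lowest and TG4 the highest lung on each of the 3 probes.

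**Figure D1:**
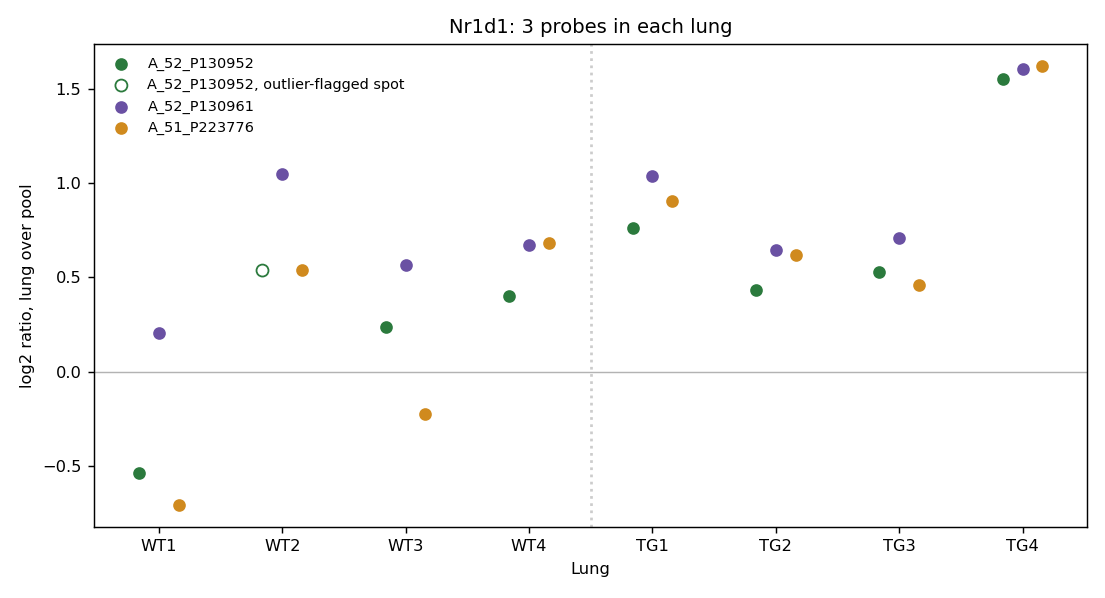
Log2 ratio to the pool (vertical axis) of the 3 Nr1d1 probes in each of 8 lungs (horizontal axis), 1 point per probe and lung. The open circle is the WT2 spot left out for an outlier flag, which at 0.54 lies above the filled points of the same probe in TG2 and TG3.

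Dbp, a D-box activator and among the most strongly cycling clock outputs, followed Nr1d1 in part. It read -0.34, 0.60, 0.40 and 0.58 in wild-type and 1.56, 0.31, 0.88 and 1.53 in transgenic lungs. TG1, TG4 and TG3 exceeded all wild-type lungs, while TG2, the lung with the most Arntl, was below WT2, WT3 and WT4. Nr1d2, which encodes REV-ERBβ, stayed within a 1.71-fold span, at 0.10, 0.18, 0.40 and -0.12 in wild-type and 0.50, -0.27, 0.04 and 0.38 in transgenic lungs. TG2 was the lowest lung.

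The Per genes, which encode the inhibitors of the loop, had narrower ranges than Nr1d1 and Dbp. Per1 gave 0.59, 0.67, 0.46 and 0.10 in wild-type and 0.25, -0.13, 0.47 and 0.73 in transgenic lungs. Per3 gave 0.20, 0.18, 0.49 and -0.49 in wild-type and -0.07, -0.38, -0.12 and 0.35 in transgenic lungs. TG2 was low and TG4 high for both, and WT4 was the lowest wild-type lung for both.

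The brighter Per2 probe gave 0.21, 0.36, 0.60 and 0.03 in wild-type and 0.23, -0.16, 0.02 and 0.02 in transgenic lungs. The dimmer one, A_51_P282760, read 0.34, 0.43, 0.37 and -0.47 in wild-type and -0.22, -0.40, -0.04 and 0.56 in transgenic lungs. These Per2 probes disagreed on TG4, which was near the pool on the first and the highest lung on the other. Tef, the D-box factor related to Dbp, was above the pool in all 8 lungs, as were 21.3% of probes, and ranged from 0.36 in WT4 to 1.07 in WT3. Per the methods, every lung gave an equal share of RNA to the pool. The level of a transcript in the pool should then lie between the lowest and the highest lung. Readings on the same side of the pool in all 8 lungs, as for Npas2 and Tef, are thus not read as expression differences. The mean linear ratio to the pool was 0.65 for Npas2 and 1.62 for Tef. There was no dye swap, and the cause of these shifts was not tested.

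**Figure D2:**
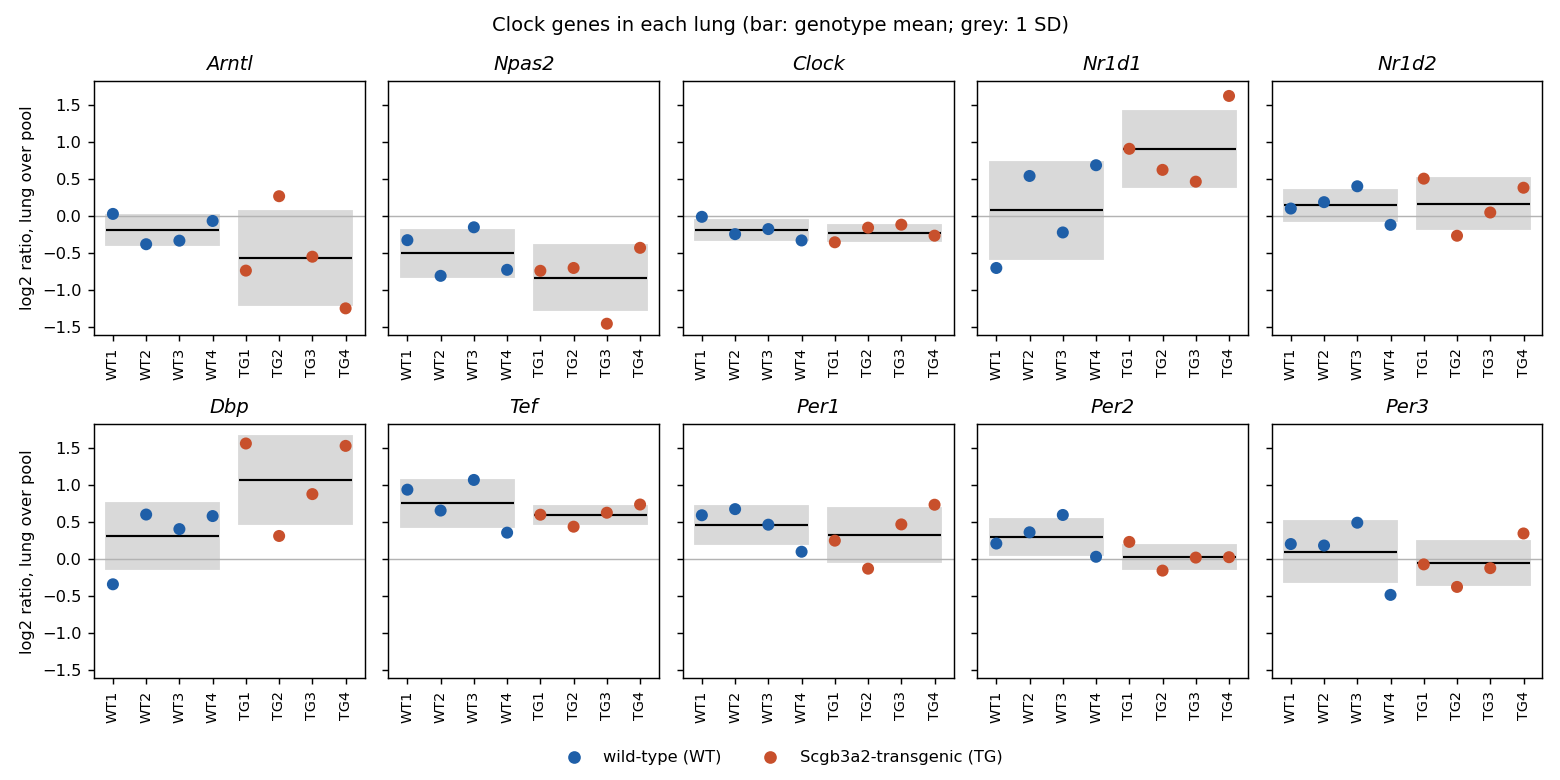
Log2 ratio to the pool (vertical axis) of the 10 clock genes in each lung (horizontal axis), 1 point per lung, with the genotype mean as a bar and 1 SD either way in grey. Nr1d1 and Dbp span the widest ranges and Clock the narrowest, and for each gene the genotypes overlap.

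By genotype, Nr1d1 and Dbp were higher on average in transgenic lungs and Arntl and Npas2 lower. The wild-type mean of Nr1d1 was 0.07 ± 0.65 (SD, n = 4) and the transgenic mean 0.90 ± 0.51 (SD, n = 4), a log2 difference of 0.83 (standard error 0.32), or 1.78-fold. That of Dbp was 0.31 ± 0.44 (SD, n = 4), with transgenic lungs at 1.07 ± 0.60 (SD, n = 4), a log2 difference of 0.76 (standard error 0.28), or 1.69-fold. The log2 differences of Arntl and Npas2 were -0.38 (standard error 0.26) and -0.33 (standard error 0.21). That of Arntl was -0.66 without TG2 and -0.15 without TG4, and that of Npas2 was -0.12 without TG3. Those of the remaining members lay between -0.27 for Per2 and 0.02 for Nr1d2. Thus 3 of the 10 genes were higher and 7 lower, and for 0 of the 10 brightest probes did the genotypes separate, where 1.46% of probes with 8 values did. Nr1d1 and Dbp, 2 of the 10, passed 1.5-fold with an unadjusted p under 0.05 by limma, a criterion met by 0.230% of the 32645 probes tested and in the upward direction by 0.126%, and nothing is read from this count since Nr1d1 chose the set. Both genes missed the criterion without WT1, at log2 differences of 0.57 for Nr1d1 and 0.54 for Dbp, without TG4, at 0.59 and 0.61, with array weights, at 0.53 and 0.43, and in the sample channel alone, at 0.73 and 0.63. Nr1d1 missed it also without WT3, at 0.73, with normexp fitted on all spots, at 0.61, and on probe A_52_P130961, at 0.38, and Dbp without TG1, at 0.60. Where these differences were over 1.5-fold, the unadjusted p by limma was not under 0.05. No probe of the array had an adjusted p under 0.05 for genotype, against 683 (2.09%) unadjusted.

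The rise of Nr1d1 and Dbp was carried by the 4 lungs of the first scan day. On that day, with 2 lungs of each genotype, the log2 difference was 1.73 for Nr1d1 and 1.52 for Dbp, and Arntl differed by -0.84, without overlap for any of these. On the second day the differences were -0.07 for Nr1d1, 0.0035 for Dbp and 0.08 for Arntl, and the genotypes overlapped for all of them. Slide by slide, TG4 exceeded WT3 in Nr1d1 by 1.85 and TG1 exceeded WT1 by 1.61, while TG2 exceeded WT2 by 0.08 and TG3 was below WT4, at -0.22. Both genotypes took part in this split, since Nr1d1 averaged -0.47 in wild-type lungs of the first day and 0.61 in those of the second, against 1.26 and 0.54 in transgenic lungs. Npas2 differed on average by about the same on either day, at -0.35 and -0.31, and Per2 likewise, at -0.27 and -0.26. Single slides spread wider, for Npas2 at -0.28 and -0.41 on the first day and 0.11 and -0.73 on the second. For Per2 they stood at -0.57 and 0.02 on the first day and -0.52 and -0.01 on the second. A scan day is only when the slide was read, the difference between days was not tested, and its part in the result was not tested.

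Within genotypes, all 7 genes that the loop places opposite to Arntl had negative slopes on it. The slope is the change in a gene's log2 ratio per unit of Arntl's log2 ratio across the 8 lungs, with genotype in the limma model, so that the average difference between genotypes does not enter. Among their brightest probes 7 of 7 had a slope below 0, as had 49.0% of the 31739 probes tested, and 4 of 7 had an unadjusted p under 0.05, against 1.54% of probes on that side. Over every probe of these genes 13 of 13 were below 0 and 10 of 13 had an unadjusted p under 0.05, although probes of the same gene are not independent. Nor are the 7 genes, which were measured in the same 8 lungs and in part varied together, so these counts are not of independent observations. The median slope of the 7 was -0.50, and that of all probes 0.0035. After Benjamini-Hochberg adjustment over all probes 0 of the 31739 passed by limma, with 889 (2.80%) at an unadjusted p under 0.05 in either direction, and the adjusted p of each member was 1.00. These p-values take Arntl, a single probe, as known without error, and were read from genes chosen with earlier results of these arrays in view.

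Dbp had the steepest and clearest slope, -0.92 (standard error 0.23, unadjusted p = 0.00215 by limma), the seventh lowest moderated t of all probes. Nr1d2 followed at -0.50 (standard error 0.16) and Per1 at -0.53 (standard error 0.17), with unadjusted p of 0.0103 and 0.0100 by limma. Per3 had -0.50 (standard error 0.21, unadjusted p = 0.0389 by limma). The brightest Nr1d1 probe had -0.67 (standard error 0.35), short of the threshold at an unadjusted p of 0.0847 by limma. Its other probes had slopes of -0.67 (unadjusted p = 0.00638 by limma) and, on 7 lungs without WT2, -0.73 (unadjusted p = 0.0176 by limma).

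Probes of Tef and Per2 differed in how steep they were. The brightest Tef probe had a slope of -0.20 (unadjusted p = 0.302 by limma), and the other Tef probes -0.45, -0.59 and -0.77, each with an unadjusted p under 0.05, on 7 or 8 lungs. For Per2 the slopes were -0.22 (unadjusted p = 0.194 by limma) and -0.61 (unadjusted p = 0.0262 by limma). Clock, which cycles weakly if at all in most tissues, ran the same way as Arntl on all 4 probes, with slopes of 0.11 to 0.28 that did not pass an unadjusted p under 0.05 (lowest 0.0839 by limma). Npas2 had a slope of -0.13 (standard error 0.27, unadjusted p = 0.641 by limma), so it was not detectably tied to Arntl, and its sign turned under 7 of 23 alternative settings. In the Cy5 channel alone, without the pool as denominator, the brightest Nr1d1 probe turned as well, to 0.45, while Dbp, Nr1d2, Tef and the Per genes kept negative slopes.

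**Figure D3:**
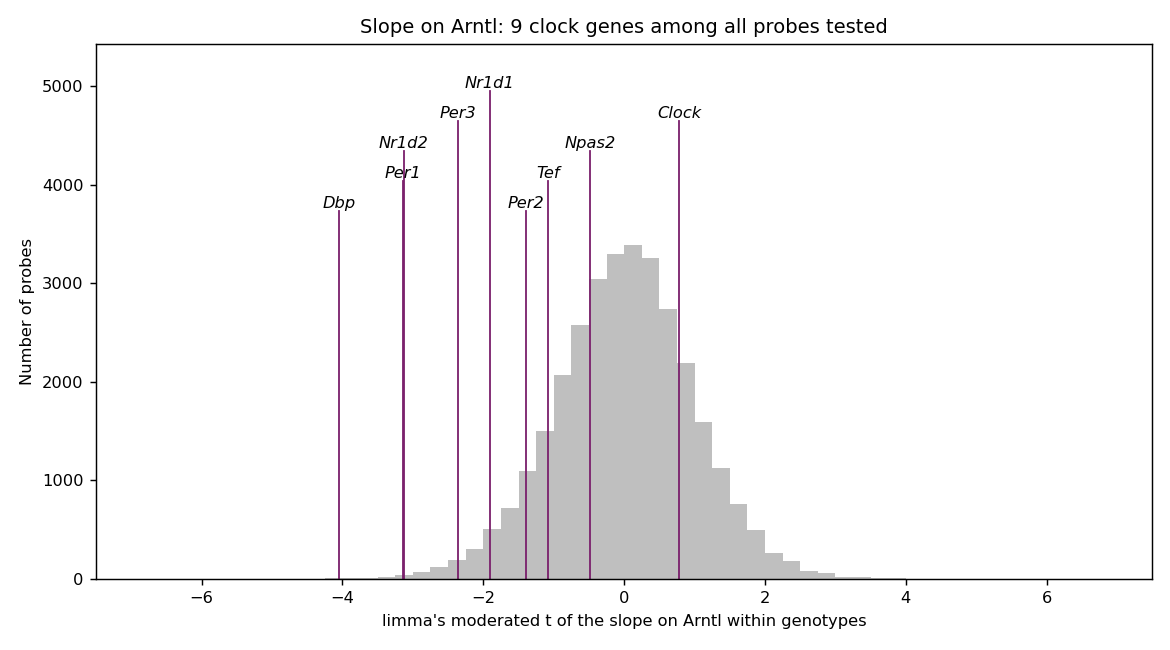
Number of probes (vertical axis) by limma's moderated t of the slope on Arntl within genotypes (horizontal axis), all 31739 probes tested in grey, with a line at the brightest probe of each of 9 clock genes. Dbp lies at the far left edge, with Nr1d2, Per1, Per3 and Nr1d1 in the left tail and Clock right of the centre.

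How far these relations rested on the lungs at either end of Arntl differed by gene. Correlations with Arntl after removal of genotype means were tested for the 15 member probes with 8 values, two-sided. For Dbp, Pearson's r was -0.82 (exact permutation p = 0.0156, adjusted 0.156), and -0.72 without TG2 and TG4, the lungs farthest from the Arntl median. For Nr1d2 r was -0.81 (exact permutation p = 0.0451, adjusted 0.156), and -0.71 without those lungs. Both were somewhat weaker over the remaining 6 lungs and kept their direction. For the brightest Nr1d1 probe r was -0.53 (exact permutation p = 0.158, adjusted 0.215), and -0.42 without those lungs. For its probe A_52_P130961 r was -0.79 either way (exact permutation p = 0.0399 with all 8 lungs, adjusted 0.156). Without WT1 and TG4, the lungs farthest from the Nr1d1 median, r of the brightest Nr1d1 probe with Arntl was 0.006. That relation thus rested largely on WT1 and TG4.

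For Per1 r was -0.79 (exact permutation p = 0.0660, adjusted 0.165), and -0.21 without TG2 and TG4. For Per3 r was -0.65 (exact permutation p = 0.0521, adjusted 0.156), and -0.47 without those lungs. For the brightest Tef probe r was -0.39 (exact permutation p = 0.142, adjusted 0.21), and -0.16 without those lungs. For Tef probe A_52_P658073 r was -0.81 (exact permutation p = 0.135, adjusted 0.21), and 0.07 without those lungs. The relations of Per1 and of Tef probe A_52_P658073 to Arntl thus rested largely on those lungs, and that of Per3 weakened without them. Clock probe A_52_P279391 ran with Arntl at r = 0.67 (exact permutation p = 0.0295, adjusted 0.156), and 0.90 without those lungs. The other Clock probes had r of 0.40 to 0.52, each with an exact permutation p over 0.05, and of -0.10 to 0.52 without those lungs. Over all 8 lungs, with the genotype difference left in and so without a test, Pearson's r and Spearman's rho were -0.84 and -0.93 for Dbp, -0.75 and -0.67 for Nr1d2, -0.64 and -0.52 for Nr1d1, -0.60 and -0.55 for Per1, and -0.47 and -0.33 for Per3. Without TG2 and TG4 these r were -0.89, -0.63, -0.63, 0.08 and -0.01 in the same order.

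With the scan day in the model, which removes the mean of each day, the slopes were -1.05 for Dbp (unadjusted p = 0.00260 by limma), -1.01 for Nr1d1 (unadjusted p = 0.0181 by limma) and -0.52 for Per1 (unadjusted p = 0.0292 by limma). Those of Nr1d2 and Per3 were -0.35 (unadjusted p = 0.0530 by limma) and -0.31 (unadjusted p = 0.184 by limma), and Tef fell to -0.02. A day holds 4 lungs, too few for a correlation within it. Without TG2, Nr1d1 alone had an unadjusted p under 0.05 among the brightest probes, with Dbp at -0.96 (unadjusted p = 0.0558 by limma), Nr1d2 at -0.45 (0.178) and Per1 at -0.49 (0.169), and Nr1d1 at -1.47 (0.0359). Without TG4, Nr1d1 was at -0.32 (unadjusted p = 0.516 by limma), Per1 at -0.48 (0.0798) and Per3 at -0.43 (0.194), while Dbp was at -1.15 (0.00448) and Nr1d2 at -0.67 (0.0134).

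**Figure D4:**
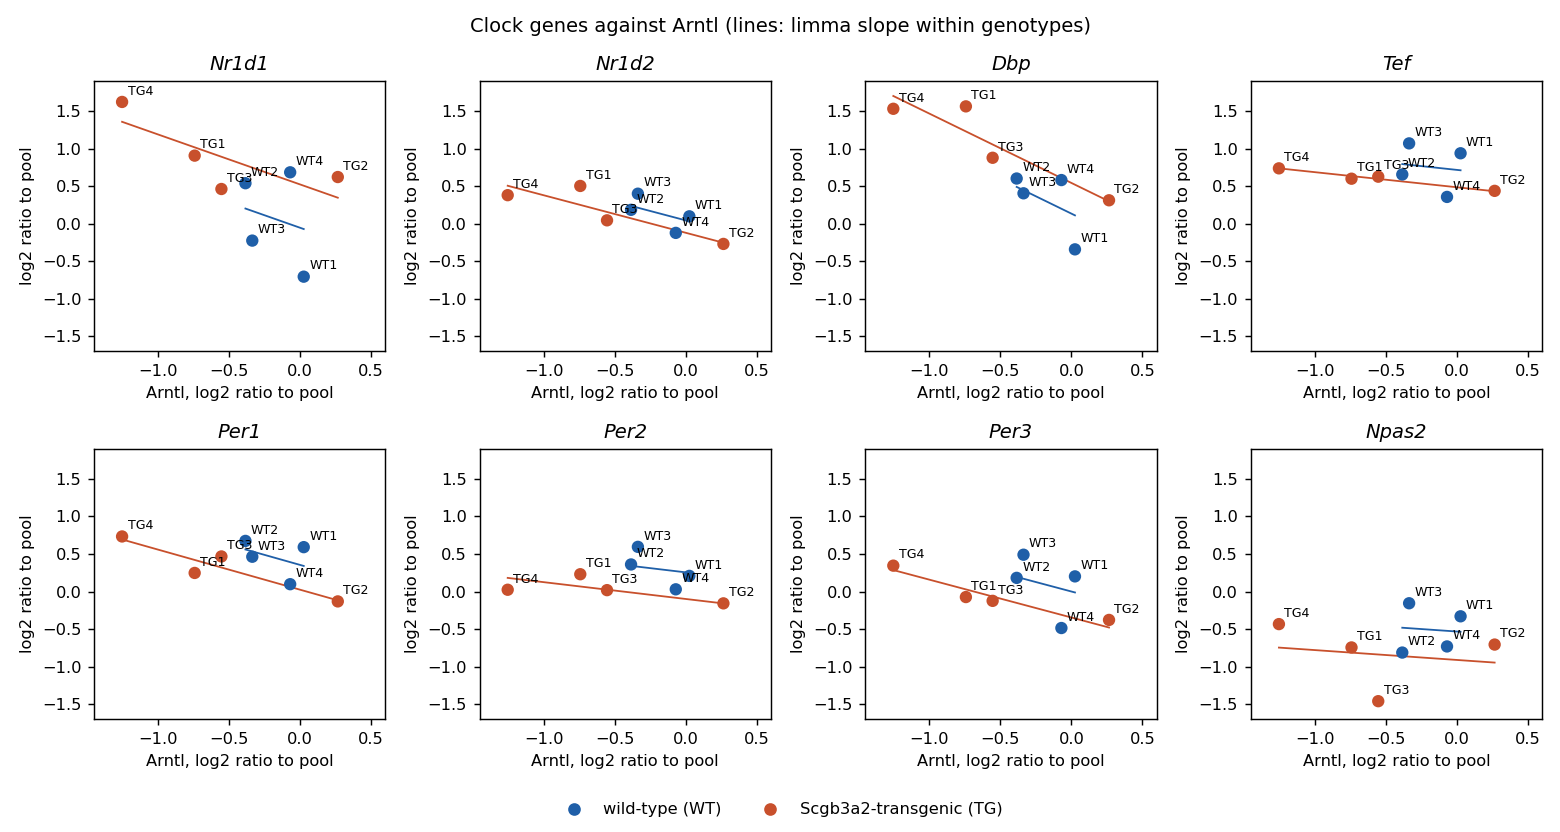
Log2 ratio to the pool of 8 clock genes (vertical axes) against that of Arntl (horizontal axes), 1 point per lung, with lines at the slope fitted within genotypes. Dbp falls from TG4 and TG1 at the left to TG2 and WT1 at the right, while the lines of Npas2 are nearly flat, at a slope of -0.13.

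The genes opposite to Arntl were not all equally tied to each other. Of the 45 pairs of the 10 genes, 10 had an unadjusted exact permutation p under 0.05 after removal of genotype means, and none passed adjustment over the 45 (lowest adjusted p 0.117). Nr1d1 and Dbp were positively correlated, with r = 0.76 (exact permutation p = 0.0313, adjusted 0.176). Both ran opposite to the brightest Clock probe, with r = -0.81 and -0.84. On the other Clock probes r was -0.10 to -0.62 for the brightest Nr1d1 probe and -0.27 to -0.69 for Dbp. None of these had an unadjusted exact permutation p under 0.05. Among the Per genes, Tef and Nr1d2, r lay between 0.43 and 0.91 in every pair, the highest for Tef and Per3 (exact permutation p = 0.00347, adjusted 0.117). Between Dbp and Nr1d2 r was 0.67 (exact permutation p = 0.127), and between Dbp and Per2 0.42 (exact permutation p = 0.288). With Per1, Per3 and Tef Dbp had r of 0.35, 0.24 and -0.06. Between the brightest probes of Nr1d1 and the Per genes r was -0.14 to 0.12, while the Nr1d1 probe A_52_P130961 had r of 0.22 to 0.51 with the probes of the Per genes. The genes therefore do not fall into clean groups. WT1, for one, was the lowest of all lungs in Nr1d1 and Dbp but stood at 0.94 in Tef and 0.59 in Per1.

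Against Npas2 none of the 7 genes had a negative r after removal of genotype means. The values ran from 0.00 for Nr1d1 and 0.02 for Dbp to 0.51 for Tef and Per3, with exact permutation p from 0.170 to 0.990. The opposition seen with Arntl was thus not seen with Npas2, and the difference between these was not tested.

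**Figure D5:**
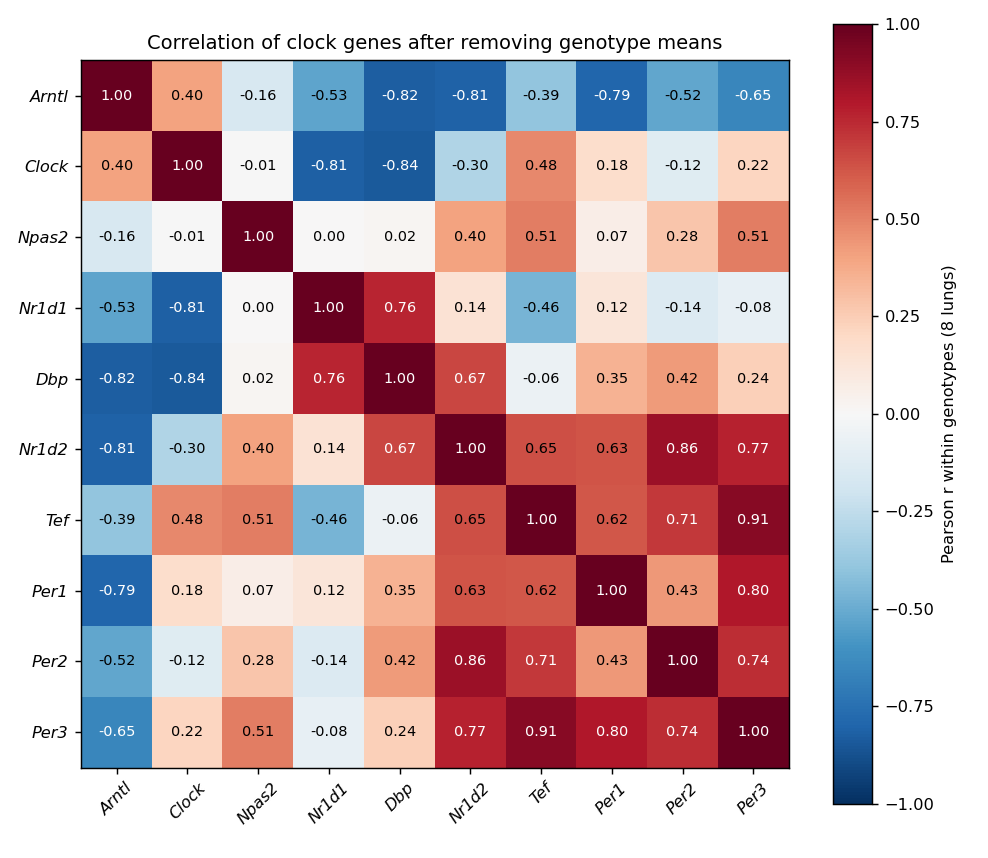
Pearson's r between pairs of the 10 clock genes over 8 lungs after removal of genotype means, by color and number, genes on both axes. Arntl has negative values with all 7 opposing genes, and the block of Nr1d2, Tef and the Per genes at the lower right is positive throughout.

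With Nr1d1 in place of Arntl as the reference, Dbp rose with it at a slope of 0.68 (standard error 0.20, unadjusted p = 0.00686 by limma), as 1.17% of probes did at an unadjusted p under 0.05. Arntl had a slope of -0.42 (standard error 0.23), with an unadjusted p of 0.0943 by limma. After removal of genotype means, r of Dbp with Nr1d1 was 0.76 over all lungs. It was 0.43 without WT1 and TG4, the lungs farthest from the Nr1d1 median. Clock had slopes below 0 on all 4 probes, from -0.21 to -0.03. Nr1d2, Tef, the Per genes and Npas2 had slopes of -0.19 to 0.07 on their brightest probes, and none had an unadjusted p under 0.05. Over all probes 0 had an adjusted p under 0.05, against 883 (2.78%) unadjusted.

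Among further clock genes, most did not track Arntl detectably. Of 17 tested genes of the wider loop 1 ran against Arntl with an unadjusted p under 0.05 and 0 ran with it, where 1.54% and 1.26% of all probes did. This was Gm129, which encodes the repressor CHRONO, with a slope of -0.50 (unadjusted p = 0.0281 by limma) and TG4 the highest lung at 1.15. The next 3 genes were named after their values were seen. Hlf, the third D-box factor of the Dbp family, had a slope of -0.53 on 6 lungs (unadjusted p = 0.0532 by limma). Cry1 and Cry2, which encode partners of the PER proteins, had slopes of -0.31 (unadjusted p = 0.141 by limma) and -0.27 (0.130).

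Of 16 tested genes reported as outputs of the clock, 2 ran against Arntl with an unadjusted p under 0.05, where 1.54% of all probes did. These were Tspan4, at -0.48 (unadjusted p = 0.0225 by limma), and Pfkfb3, a regulator of glycolysis, at -0.41 (0.0135). The median slope of the outputs was -0.11. Glucocorticoid-induced genes, which share Per1 with the clock list, had 1 of 11 against Arntl, which was Per1 itself, and immediate early genes 0 of 14.

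Among named genes outside the 10, with a value in all 8 lungs, those most like Arntl within genotypes were as follows, and probes without a gene name or with fewer values can lie further out. Running with it were 1700020I14Rik, Pclo, 6330407A03Rik, Slco2b1 and Bivm, with r of 0.87 to 0.95 over 8 lungs, and TG2 was the highest lung for each of these 5. In 6330407A03Rik TG2 stood at 3.10 while the next lung was at 0.39. Running against it were another Pfkfb3 probe, Zfp324, Vmn1r47, Ntsr1 and Gsdmcl-ps, with r of -0.83 to -0.88. By the same rule, which leaves out the other Nr1d1 probes, the 5 most like Nr1d1 were Ccdc42, Itga2, 9230104L09Rik, She and Edil3, and the 5 most opposed Car3, Nkiras1, Cidec, 2810427C15Rik and Cd74. Each had an adjusted p of 1.00.

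Some adipose and type II cell markers moved against Nr1d1. Of 10 adipose markers, all well above background on 8 arrays, 5 ran against Nr1d1 with an unadjusted p under 0.05 by limma, where 1.61% of probes did. These were Adipoq, Cfd, Fabp4, Cidec and Retn, with slopes of -0.32 to -1.18. The mean log2 ratio of the adipose list was 0.30 to 0.76 in wild-type and -0.34 to 0.40 in transgenic lungs, highest in WT1 and lowest in TG4, the lungs lowest and highest in Nr1d1. Of 7 type II cell markers 4 also ran against Nr1d1, namely Sftpc, Sftpa1, Sftpb and Sftpd. The type II list mean was 0.17 to 1.22 in wild-type and -0.01 to 0.53 in transgenic lungs. Each list mean covers only the markers with a value in that lung. Sftpc had no value in TG4, the lowest lung for this mean, nor Sftpb in WT1, nor Slc34a2 in WT2 and TG3. The adipose mean of TG3 lacked Cidea. On Arntl 0 of 10 adipose and 0 of 7 type II markers passed an unadjusted p under 0.05, with Fabp4 nearest at a slope of 0.78 (unadjusted p = 0.0571 by limma), and the difference between the slopes on Nr1d1 and on Arntl was not tested. The part of these cell types in the Nr1d1 result was not tested.

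The list mean of neutrophil markers varied more between lungs than any clock gene. Of these markers Csf3r, from -0.78 in TG4 to 0.41 in WT4, varied less than Nr1d1. The mean of 4 neutrophil markers ran from -2.45 to 0.17 in wild-type and from -2.54 to 0.82 in transgenic lungs, with WT4 and TG1 high, and 0 of 4 had an unadjusted p under 0.05 on Arntl or Nr1d1. Among B cell and erythroid markers 1 of 5 and 1 of 4 ran with Arntl, where 1.26% of all probes did, Cd79a at 0.49 (unadjusted p = 0.0334 by limma) and Hbb-b1 at 1.27 (0.0413). Cd79a was highest in TG1 and Hbb-b1 in TG2, at 2.64. Of the T cell, type I cell, airway and endothelial markers none passed on either gene, and of 5 tested cardiac muscle markers Nppa ran against Nr1d1, at -0.45 (unadjusted p = 0.0351 by limma).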

How the data were processed

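For 8 arrays the authors deposited intensities from the Agilent Feature Extraction software (version 10.10.1.1 per the file headers, 11.0.1.1 per the labels), raw and processed, per spot and channel, and a matrix of log2 ratios that the authors made from the processed signals. The flag columns of the deposited files were used to leave out spots. The methods name GeneSpring and a t-test, and no background correction or filter.

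Here median signals were corrected with normexp (offset 50, fitted on unflagged spots), spots with an outlier flag were dropped, loess was applied to the log2 ratios of each array, and replicate spots of a probe were averaged (R 4.3.3, limma 3.58.1). A probe was kept when well above background in Cy5 on at least 4 of 8 arrays, with at least 2 values per genotype (32645 probes), or 6 lungs and 3 per genotype for the slopes (31739 probes). Genotype was fitted with limma over all 8 arrays, and the slope on Arntl or Nr1d1 with genotype in the model, two-sided with Benjamini-Hochberg adjustment over all probes. Correlations were tested by exact permutation of 40320 pairings, or 576 within genotypes, where the smallest p is 0.00174. Genes named by rule are the members, Scgb3a2, genes of the clock, output, glucocorticoid and immediate early lists with an unadjusted p under 0.05 on Arntl, and the 5 genes most like Arntl and Nr1d1 in each direction by moderated t. Cell type markers and a few clock genes were named after their values were seen. Members and lists were chosen with earlier results of these data known. Samples were grouped by genotype from the labels, with 0 matrix columns unmapped. The labels name a miRNeasy kit and the methods an RNeasy kit, and the methods give an age of about 8 weeks. Precision is limited by the count of 8 arrays. The fits were tested on simulated data. Alternatives changed the background correction, normalization, channel, filter, variance model and blocking, took the deposited matrix, or dropped each lung in turn. Permutation tests and plots used Python 3.11.15 with matplotlib 3.10.9.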

Additional observations from a re-analysis of the deposited data

Results flagged for a closer look

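The dimmer Per2 probe, A_51_P282760, had 1 wild-type lung far from the others. WT4 read -0.47 where WT1, WT2 and WT3 read 0.34, 0.43 and 0.37, a gap of 0.894 of the group's range, above Dixon's critical value for 4 samples. Of 35 groups examined this way about 1 in 20 would stand out by chance. On the brighter Per2 probe WT4 was also the lowest wild-type lung, at 0.03.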

How the results depend on the processing

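Under the alternatives run, the slopes of Dbp, Nr1d2, Tef, Per1, Per2 and Per3 on Arntl stayed below 0 and that of Clock above 0, and 0 probes passed adjustment in any of them. Dbp kept an unadjusted p under 0.05 in 22 of 23, Nr1d2 in 20 of 23, Per1 in 19 of 23 and Per3 in 11 of 23, while other probes included, Nr1d1 reached it in 7 of 25, Tef in 4 of 26 and Per2 in 1 of 24. Npas2 turned to 0.23 with normexp fitted on all spots, 0.15 with the Agilent processed signals and with the authors' matrix, 0.18 in the sample channel alone, 0.23 with scan day as a term, 0.048 without genotype in the model, and ranged from -0.83 to 0.28 with lungs left out. In the sample channel alone Nr1d1 turned to 0.45 on Arntl, and on Nr1d1 Arntl turned to 0.24 and Clock to 0.20.

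The 75 probes called by genotype became 221 at offset 0, 33 with normexp on all spots, 371 with Agilent processed signals, 360 on the authors' matrix, 49 with array weights, 136 with the slide as a block, 130 with the replicate block and 27 by the methods' t-test (864 unadjusted and 0 adjusted), and 49 (without WT3) to 167 (without WT4) with lungs left out. The 889 probes of the Arntl slope became 4023 with normexp on all spots, 3479 in the sample channel and 3369 with array weights, and 603 (without TG4) to 2197 (without TG2) with lungs left out. The 883 of the Nr1d1 slope became 2159, 1747 with median centring, and 6839 in the sample channel, and 611 (without WT2) to 1463 (without WT3) with lungs left out. The cause of these shifts was not tested.

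Replicate numbers did not pair the lungs, with correlations of same-numbered deviations of 0.32, 0.25, -0.08 and -0.21 and 2 of 4 wild-type arrays closest to their own number. Arrays of the same slide correlated at 0.30, 0.32, 0.25 and 0.08, and with the slide as a block Per3 had a slope of -0.45 and an unadjusted p of 0.0516 by limma, so that 3 in place of 4 of the 7 brightest probes were under 0.05. With the replicate block the Dbp slope was -0.92 and that of Per3 -0.53. Another Arntl probe was not run, since the array has 1. Small slopes on Nr1d1 turned sign under up to 9 of 24 alternatives (Npas2).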
